A study of Homo sapiens with 6 samples.

Results

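The genes described here are 10 immediate-early genes outside the AP-1 family: the zinc finger factors EGR1, EGR2 and EGR3, the immediate early response genes IER2, IER3 and IER5, the orphan nuclear receptors NR4A1 and NR4A2, the serum response factor gene SRF, and ZFP36, which encodes the mRNA decay factor tristetraprolin. They were taken by symbol, not by value, and each matched 1 locus, so that they are 10 of the 47577 loci in the expression table. RNA-seq was performed on OVCAR3, an established cell line of a human high-grade serous ovarian adenocarcinoma. Cells were treated with DMSO (vehicle, 3 libraries) or with 200 nM THZ531, an inhibitor of the transcription elongation kinases CDK12 and CDK13 (3 libraries), both for 6 h and in RPMI medium with fetal bovine serum and antibiotics. The sample titles, the series title and the study's methods name THZ531, whereas the treatment protocol in the labels names THZ1, a related covalent inhibitor. The labels name neither serum starvation nor an added stimulus, and a single line without a second inhibitor limits the groups as a model. The question for these genes is how short-term CDK12/13 inhibition changed their mRNA in cells grown with serum and no named stimulus.

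Immediate-early genes are transcribed within minutes of a stimulus and without new protein synthesis, from factors already present in the cell. Growth factors act through ERK on the ELK factors, which sit with SRF on the CArG box of their promoters, whereas actin dynamics act on SRF through its MRTF partners. EGR and NR4A proteins are themselves transcription factors that pass the signal on to later genes, and the NAB proteins restrain the EGR factors. Many of the mRNAs carry AU-rich elements in the 3′ UTR, to which ZFP36 binds to shorten their lifetime, its own mRNA included.

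To show the elements that SRF and CREB are known to bind in such genes, the 150 bases before the RefSeq start (GRCh38.p14) are given for 3 members. They lie at chr5:138465329-138465478 for EGR1, at chr6:43171119-43171268 for SRF and at chr19:13150261-13150410 for IER2, all on the plus strand. Capitals mark the CArG box (CC, a run of A or T, then GG) in EGR1 and SRF, and the reverse complement of the short cAMP response element TGACG in IER2.
EGR1: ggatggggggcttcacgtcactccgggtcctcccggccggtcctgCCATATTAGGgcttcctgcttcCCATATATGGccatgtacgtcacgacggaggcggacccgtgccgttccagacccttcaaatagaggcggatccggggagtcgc
SRF: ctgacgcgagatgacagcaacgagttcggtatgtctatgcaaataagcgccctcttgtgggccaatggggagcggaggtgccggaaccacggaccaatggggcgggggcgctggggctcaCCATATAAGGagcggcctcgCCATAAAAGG
IER2: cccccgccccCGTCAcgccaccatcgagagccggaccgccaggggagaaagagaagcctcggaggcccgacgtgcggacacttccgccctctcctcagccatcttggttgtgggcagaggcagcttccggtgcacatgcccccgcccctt
The CArG boxes of EGR1 begin 105 and 83 bases before the start, and those of SRF 30 and 10 bases before it. Of 35116 promoters searched on both strands from 250 bases before to 50 after the start, 1.29% held a CArG box and 24.6% the short form TGACG. Among the 7 members with an entry (EGR1, EGR2, IER2, IER5, SRF, NR4A1 and ZFP36), the CArG box was found in EGR1 and SRF, and TGACG in EGR1, IER2 and SRF, overlapping none of the CArG boxes. The full element TGACGTCA, which contains the short form (1.85% of promoters), and the EGR site GCGTGGGCG (0.795%) matched no member, while the EGR site GCGGGGGCG (5.07%) and TATAAA (11.5%) matched SRF alone of the 7. EGR3, IER3 and NR4A2 had no entry. The start used lay 28610 bp from the MANE start for NR4A1, outside the measured locus, and 2801 bp from it for EGR2, so that their windows are those of other starts.

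To show the AU-rich part of the mRNAs, 30-base windows of the 3′ UTR with the most ATTTA pentamers (capitals) are given, in mRNA orientation, for the 3 members that carry the most. They lie at chr1:181092442-181092471 (plus strand) for IER5, at chr6:30743655-30743684 (minus strand) for IER3 and at chr19:39409183-39409212 (plus strand) for ZFP36, all in hg38.
IER5: ggtgtcttcctttATTTATTTATTTATTTA
IER3: ttgctcctaattaatATTTAtatgtATTTA
ZFP36: tgggccctttATTTAtgacgactttATTTA
Over the whole 3′ UTR of the MANE transcript, IER5 held 10 ATTTA in 3014 nt, IER3 6 in 737 nt and ZFP36 5 in 708 nt. NR4A2 held 4, EGR3, SRF and NR4A1 3 each, EGR2 2 and EGR1 1. IER2 held none in 1053 nt, against a median of 2 over the tested genes with a MANE transcript.

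Depth was higher in every DMSO library, at 60146046 to 70986130 gene reads, than in the THZ531 libraries, at 53054048 to 57953296. Libraries of the same treatment correlated at r = 0.986 or more across loci, against 0.935 to 0.940 between treatments. Of 7 serous epithelial markers, the keratins and EPCAM were high in every library, and the summed level of the 7 was 430963 to 441496 normalized reads in DMSO and 548370 to 560936 in THZ531. PAX8, the lineage factor of this tumor, fell from 11272 ± 545 to 1242 ± 121 (SD, n = 3). MUC16 (4598 to 3334, log2 -0.46) and WT1 (650.3 to 579, log2 -0.17) were not called, and most of the sum was that of KRT7, KRT8 and KRT18. Of 10 markers of immune, endothelial, stromal and liver cells, CD3E and ALB were at 0 in all libraries. DCN averaged 1.59 in DMSO and 0 in THZ531. CD68 (404 in DMSO to 410 in THZ531), PECAM1 (63.9 to 59.3) and PTPRC (33.6 to 24.1) were not called, and PDGFRB (11.5 to 9.29) was not tested. COL1A1 (995 to 2190), COL3A1 (724 to 1080) and VWF (89.0 to 144) increased. Of these increases, COL1A1 alone was also called under the same total and RPL34 scaling. The sum of these 10 was 2168 to 2517 in DMSO and 3779 to 4042 in THZ531, and its part in the results below was not tested.

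THZ531 did not move these genes in 1 direction. In the values as scaled by the authors, transcripts of IER2, IER3, IER5 and NR4A2 more than doubled on average and EGR3 fell. EGR1, SRF, NR4A1 and ZFP36 stayed under a 1.5-fold change. When libraries were scaled to RPL34 instead, the log2 increases were 0.70 for IER2, 0.61 for IER3, 0.72 for IER5 and 0.96 for NR4A2. EGR2 was close to the detection limit in both groups. Calls followed the thresholds of the study, a change of 1.5-fold or more with an unadjusted limma p of 0.05 or less, and were made over the 17568 loci that reached 10 normalized reads in 3 or more libraries. By this rule 4 of the 9 tested members increased (44.4%) and 1 decreased (11.1%), whereas 15.7% of all tested loci increased and 23.9% decreased, 39.5% in either direction. The median log2 fold change was 0.51 over the 9 members and -0.01 over all tested loci. The groups did not overlap for 8 of the 9 members, against 71.7% of all tested loci. In this bulk RNA, a change in the number of cells that express a gene and in the RNA per cell cannot be told apart.

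**Figure D1:**
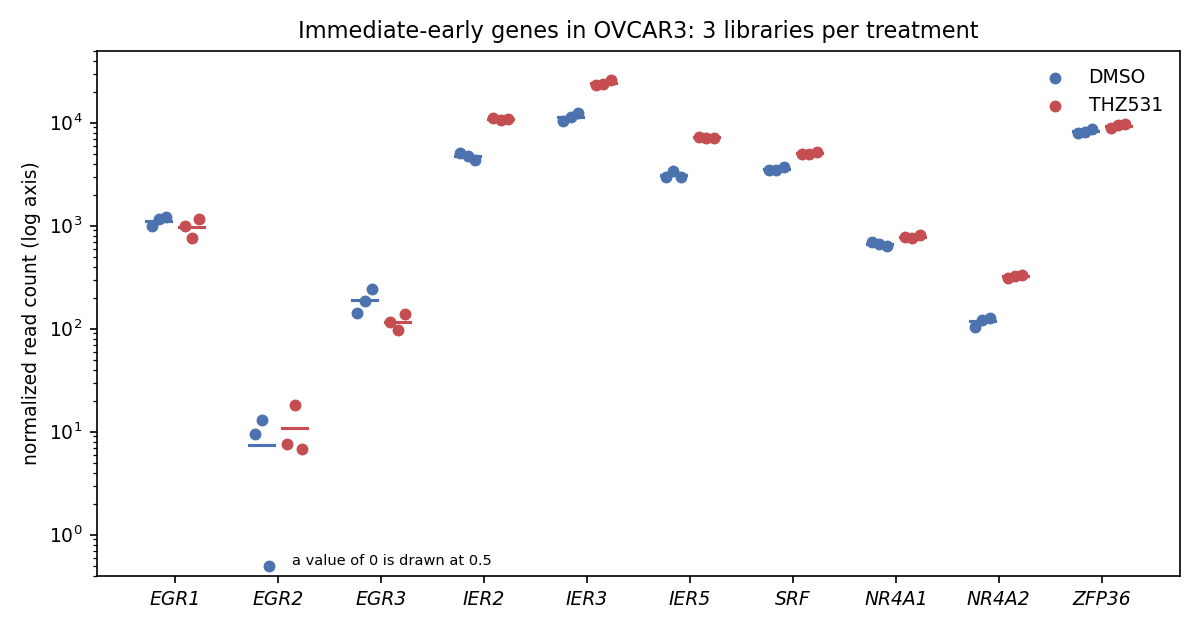
Normalized read count (log axis) of the 10 genes in each of the 3 DMSO (blue) and 3 THZ531 (red) libraries, in replicate order from left to right, with the group mean as a line; a value of 0 is drawn at 0.5. IER2, IER3, IER5 and NR4A2 have means over 2-fold apart and no overlap between groups, whereas the EGR1 and EGR2 libraries overlap.

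Per kilobase of the MANE mRNA, the scale on which genes can be compared, the DMSO levels spanned a wide range. IER3 stood highest at 9214 ± 863 normalized reads per kb (SD, n = 3), followed by ZFP36 at 4721 ± 226 and IER2 at 2244 ± 164. SRF (843 ± 35.7) and IER5 (741 ± 51.2) came next, then EGR1 (358 ± 38.6) and NR4A1 (270 ± 11.2). At the low end were EGR3 at 42.3 ± 11.6 and NR4A2 at 34.0 ± 3.47, which were within the spread of each other, and EGR2 at 2.52 ± 2.26. In THZ531 the order of the means changed at 3 places, not all of them beyond the spread in both groups. IER5 (1714 ± 31.0) stood above SRF (1197 ± 24.5), NR4A2 (92.9 ± 2.51) stood above EGR3 (26.0 ± 4.81), and EGR1 (311 ± 65.0) and NR4A1 (316 ± 10.8) differed by less than their spread, as did ZFP36 (5342 ± 261) and IER2 (5138 ± 88.3).

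The EGR genes encode zinc finger transcription factors that bind GC-rich sites near growth and differentiation genes. EGR1 (chr5:138465479-138469500) measured 987, 1159 and 1221 normalized reads in the DMSO libraries and 998, 760 and 1166 in the THZ531 libraries. The groups overlapped, THZ531 replicate 2 being the lowest of all 6 libraries and THZ531 replicate 3 lying between DMSO replicates 2 and 3. The means were 1122 ± 121 and 975 ± 204 (SD, n = 3), with a log2 fold change of -0.22 (SE 0.12, 95% CI -0.48 to 0.04, limma adjusted p = 0.118). Without THZ531 replicate 2 the difference was -0.05, and without THZ531 replicate 3 it was -0.36, so that its size rests on which treated library is kept.

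EGR3 (chr8:22687659-22694131), a close relative of EGR1, had 141, 187 and 245 normalized reads in DMSO and 116, 96.6 and 140 in THZ531. The groups were barely separated, since the lowest DMSO library and the highest THZ531 library held 140.5 and 139.9. EGR3 fell from a mean of 191 ± 52.3 to 117 ± 21.7 (SD, n = 3). Its log2 fold change was -0.68 (SE 0.21, 95% CI -1.12 to -0.23, limma adjusted p = 0.00913). It rested on 85 to 307 reads per library, and the change no longer reached 1.5-fold without DMSO replicate 3 (-0.48) or without THZ531 replicate 2 (-0.54).

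EGR2 (chr10:62811996-62819167), known for its role in myelinating cells and lymphocytes, had 12, 14 and 0 reads in DMSO and 6, 16 and 6 in THZ531. As normalized reads these were 9.53, 13.0 and 0 against 7.56, 18.2 and 6.83. The 0 of DMSO replicate 3 allows up to 2.39 normalized reads (3 counted reads, counting error only). The gene reached the minimum of 10 in 2 libraries only and was not tested, and no difference was detectable at this depth.

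The IER genes encode short proteins with diverse roles, IER3 in survival signalling downstream of NF-κB and ERK, and IER2 and IER5 in transcriptional regulation, IER5 through heat shock factor HSF1. All 3 increased to a similar extent. IER2 (chr19:13150411-13154911) measured 5055, 4782 and 4368 in DMSO and 11014, 10644 and 10867 in THZ531. IER5 (chr1:181088700-181092900) measured 2983, 3363 and 2998 against 7335, 7076 and 7186. IER3 (chr6:30743199-30744551) measured 10389, 11288 and 12516 against 23318, 24013 and 26027. In each case the lowest treated library was well above the highest control library.

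The 3 increases were 2.29-fold for IER2 (4735 ± 346 to 10842 ± 186), 2.31-fold for IER5 (3114 ± 215 to 7199 ± 130) and 2.15-fold for IER3 (11398 ± 1068 to 24452 ± 1407, SD, n = 3). The log2 fold changes were 1.20 (SE 0.05), 1.21 (SE 0.05) and 1.10 (SE 0.06), with limma adjusted p of 5.9e-12, 6.3e-12 and 8.1e-11. They stood at the 96.6, 96.7 and 96.0 percentiles of the 15278 tested loci with a symbol. IER3 lies within the span that the table gives to TUBB (91225 to 118420 normalized reads, log2 fold change 0.38) and shares 475 bp with the antisense locus IER3-AS1 (21.0 to 37.3). Whether the counting used strand is not given in the sources used here, so that reads of the shared bases cannot be assigned with certainty, although IER3-AS1 held at most 56 reads in a library.

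NR4A receptors act without a known ligand and are induced by cAMP, calcium and stress. NR4A2 (chr2:156324432-156332721) measured 105, 121 and 128 normalized reads in DMSO and 314, 323 and 331 in THZ531. The treated libraries were all above the controls and close to each other. The mean rose 2.73-fold from 118 ± 12.1 to 322.5 ± 8.73 (SD, n = 3), the largest change among the members (log2 1.45, SE 0.14, 95% CI 1.15 to 1.75, limma adjusted p = 1.6e-07, percentile 98.0).

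NR4A1 (chr12:52037714-52059503) measured 698, 669 and 642 in DMSO and 777, 764 and 816 in THZ531. The groups did not overlap, but the separation was small. The means were 670 ± 27.8 and 786 ± 26.9 (SD, n = 3), with a log2 fold change of 0.23 (SE 0.08, limma adjusted p = 0.0133), under the 1.5-fold threshold. The paralog NR4A3 increased from 70.4 ± 13.8 to 111 ± 28.5 (log2 0.63, limma adjusted p = 0.026). This call was lost under the same total (0.39), RPL34 (0.15) and a pseudocount of 10 (0.58), and without DMSO replicate 1 (0.55), DMSO replicate 3 (0.56) or THZ531 replicate 3 (0.44).

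SRF (chr6:43171269-43181506), the factor that binds the CArG boxes shown above in EGR1 and in its own promoter, measured 3455, 3507 and 3739 in DMSO and 5015, 4998 and 5186 in THZ531. All treated libraries were above all controls. The means were 3567 ± 151 and 5066 ± 104 (SD, n = 3), and the log2 fold change of 0.51 (SE 0.04, 95% CI 0.41 to 0.60, limma adjusted p = 4.6e-08) fell short of the threshold. ZFP36 (chr19:39406846-39409667) measured 7879, 8197 and 8664 against 8825, 9461 and 9709. Here too the groups did not overlap, with means of 8247 ± 395 and 9332 ± 456 (SD, n = 3) and a log2 fold change of 0.18 (SE 0.05, limma adjusted p = 0.00235), under the threshold.

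**Figure D2:**
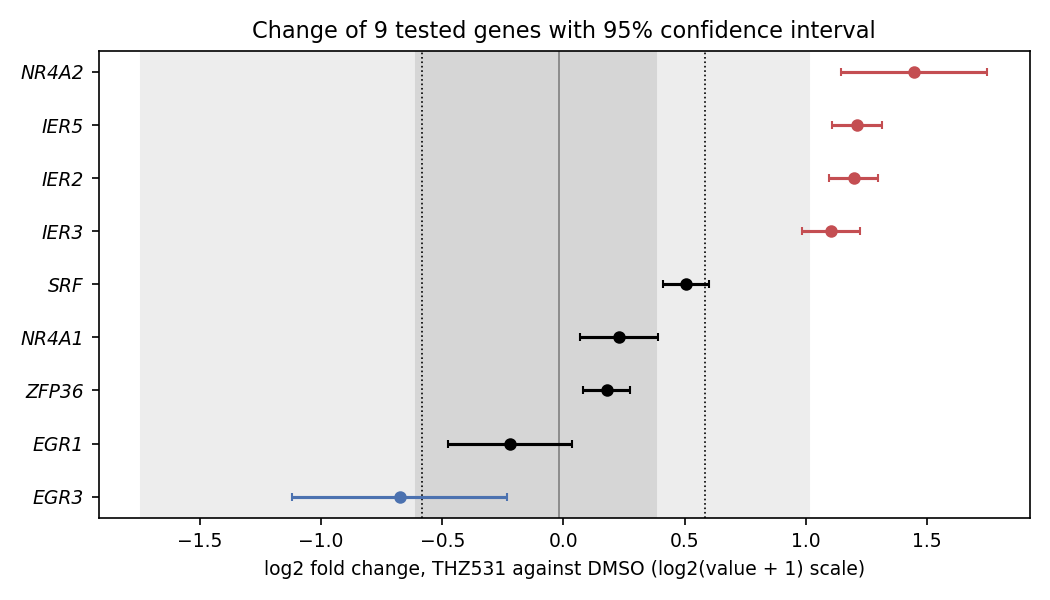
Log2 fold change, THZ531 against DMSO, of the 9 tested genes (points) with the 95% confidence interval of limma (bars); red, increased; blue, decreased; black, not called. Light and dark grey bands hold the 5th to 95th and the 25th to 75th percentile of all tested loci with a symbol, the grey line is their median and dotted lines mark 1.5-fold. NR4A2, IER5, IER2 and IER3 lie above 1.01, the 95th percentile, and EGR3 lies below -0.61, the 25th.

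The scaling of the libraries bears on the small differences. The deposited values had been scaled by the authors with DESeq2, which leaves the median of all tested loci near 0. Scaling each library to the same total put that median at -0.25, and scaling to RPL34, the reference gene of the study's qPCR, put it at -0.50. IER2, IER3, IER5 and NR4A2 were called increased under every scaling, with the lowest log2 value at 0.61 for IER3 under RPL34, and EGR3 was called decreased under every scaling. NR4A1 went from 0.23 to -0.01 and -0.26 under these alternatives, ZFP36 from 0.18 to -0.06 and -0.32, and SRF from 0.51 to 0.26 and 0.01. EGR1 reached -0.46 and -0.71, the latter past the threshold. Each scaling moves all loci by the same amount, so that the distance of a member from the median of all loci is fixed by construction. SRF stood 0.51 above that median, NR4A1 0.23 to 0.24 and ZFP36 0.18 to 0.19, and EGR1 stood at -0.22 to -0.21.

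**Figure D3:**
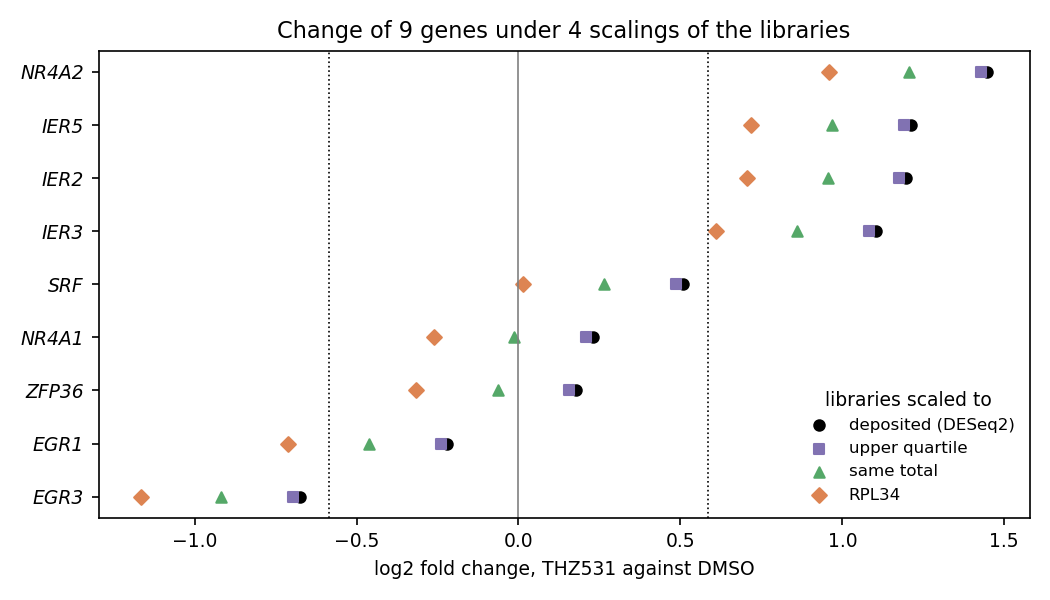
Log2 fold change of the 9 tested genes (rows) under 4 scalings of the libraries (symbols); dotted lines mark 1.5-fold. The 4 increased genes stay to the right of the upper line under each scaling, whereas NR4A1 and ZFP36 change sign when libraries are scaled to the same total or to RPL34.

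Libraries of the same treatment differed in some of these genes more than in most genes of the same level. In THZ531 the SD of EGR1 was 0.31 on the log2 scale, at the 99.9 percentile of 2409 genes within 1.5-fold of its mean, whose median was 0.08. In DMSO it was 0.16, at the 91.0 percentile. EGR3 and IER3 stood at the 95.3 and 95.6 percentiles in DMSO, and IER3 at the 98.1 percentile in THZ531. By contrast NR4A2, the most changed member, had an SD of 0.04 in THZ531, at the 4.2 percentile.

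The deviations of several members from the mean of their treatment ran in parallel over the 6 libraries. EGR1 lay 0.34 (log2) below its group mean in THZ531 replicate 2 and 0.28 above it in THZ531 replicate 3, and EGR3 lay 0.26 below and 0.27 above in the same libraries. In DMSO, replicate 1 was the lowest and replicate 3 the highest library for EGR1, EGR3, IER3, NR4A2, SRF and ZFP36. Pearson's r of these deviations was 0.95 between IER3 and SRF, 0.92 between EGR3 and SRF, 0.92 between IER3 and NR4A2, and 0.85 between EGR1 and EGR3. IER2 ran opposite to NR4A2 (r = -0.91) and to IER3 (r = -0.85). Of the 36 pairs, 15 exceeded 0.5 and 6 were under -0.5, with a median of 0.19. These are descriptions over 6 points that share depth and preparation. The deviations of other gene pairs were not correlated, so that the counts have no background. Over the levels themselves, the genes most like EGR1 across the 6 libraries were MPC1 (r = 0.979), FAM177A1, MAP7, ADAT1 and SPAG7 (0.936), chosen as the 5 highest of 11686 genes.

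**Figure D4:**
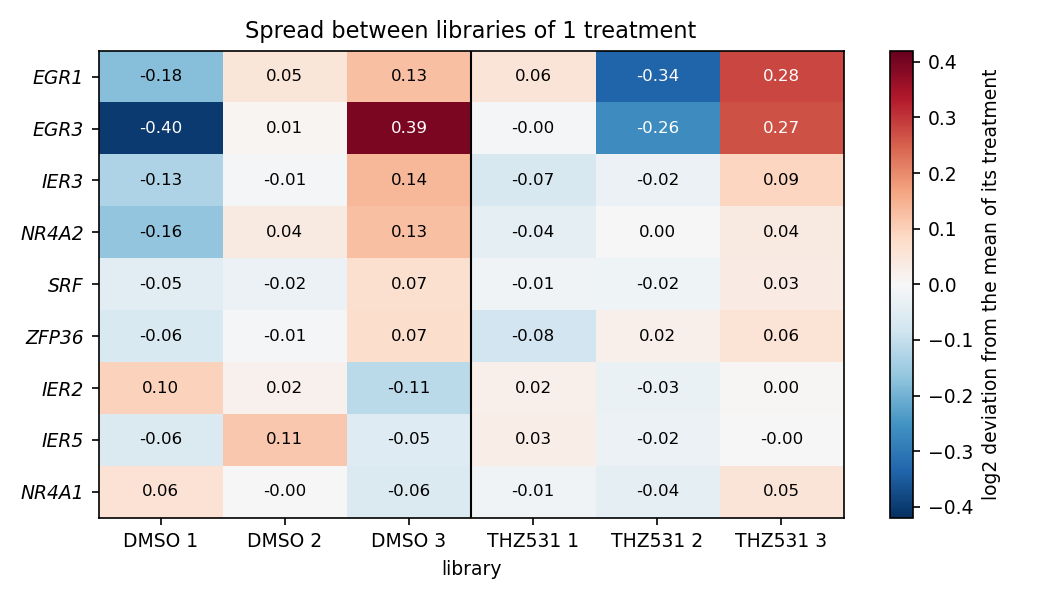
Deviation of log2(value + 1) from the mean of its treatment for the 9 tested genes (rows) in each library (columns); red is above and blue below the mean, and the black line separates the treatments. EGR1 and EGR3 show the strongest colors, up to 0.39 above and -0.40 below the mean.

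The members are compact genes. The 9 tested loci lie in the shortest quartile of tested loci with a symbol, except NR4A1 in the second, whereas the median locus is 27951 bp long. IER5 has no intron in its MANE transcript. EGR1, EGR2, EGR3, IER2, IER3 and ZFP36 have 1, of 112 nt in IER3 to 2391 nt in IER2, and SRF, NR4A1 and NR4A2 have 6 or 7, against a median of 8 over the tested genes. Increased members were found in each class, IER5 without introns, IER2 and IER3 with 1, and NR4A2 with 7. Of 327 tested genes without introns 33.9% increased and 22.3% decreased, and of 634 with 1 intron 19.4% and 26.3%. Of 3905 with 5 to 9 introns, as in SRF, NR4A1 and NR4A2, 11.3% increased and 23.4% decreased, and of 5600 with 10 or more 11.1% and 20.9%. In the shortest quartile of loci 16.6% increased and 21.1% decreased, against 9.98% and 26.0% in the second, which holds NR4A1, 13.7% and 23.3% in the third, and 13.1% and 24.3% in the longest, so that the shares were not graded by length. By ATTTA content, 9.15% of the 3673 genes with none increased, as IER2 did, and 17.2% of the 3674 with 6 or more, as IER3 and IER5 did. Of the 2433 with 3 to 5, as in EGR3, SRF, NR4A1, NR4A2 and ZFP36, 14.0% increased. The shares that decreased were 21.8%, 21.7% and 24.6% in the same order. EGR3, the decreased member, has 1 intron and 3 ATTTA. ZFP36, with 5 ATTTA and 1 intron, stayed under the threshold, as did EGR1.

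Around ZFP36 the loci moved in both directions. The unnamed loci GSHG0021630 (chr19:39402852-39406553) and GSHG0022875 (chr19:39405055-39406624) end 293 and 222 bp before its start and overlap each other, so that their changes may not be separate. They increased from 258 ± 29.5 to 913 ± 94.4 (log2 1.82) and from 56.7 ± 14.0 to 177 ± 45.0 (log2 1.62, SD, n = 3). PLEKHG2 beyond its other end fell from 20086 ± 434 to 5184 ± 211 (log2 -1.95), and MED29, 6205 bp before it, from 19171 ± 558 to 6313 ± 356 (log2 -1.60). ZFP36 thus stood at a log2 difference of 0.18 between neighbors with changes of over 3-fold. Next to NR4A2, the unnamed locus GSHG0026009 (chr2:156336572-156342121), 3851 bp away, increased from 79.8 ± 6.71 to 132 ± 6.89 (log2 0.72), less than NR4A2 itself. STX10, 36 bp from IER2, measured 2378 in DMSO and 2454 in THZ531 (log2 0.05), while IER2 increased 2.29-fold. NACC1, 9264 bp from IER2, decreased from 16446 to 9403 (log2 -0.81). Near SRF, CUL9 at 676 bp decreased (log2 -0.76) and PTK7 at 9550 bp was not called (log2 0.40). FLOT1 near IER3 (log2 -0.44) and ADO near EGR2 (log2 -0.49) were not called.

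The paralogs and partners of the members were mixed. Of 13 listed, 12 were tested. Of these, 3 increased (25%) and 2 decreased (16.7%), against 15.7% and 23.9% of all tested loci. The median log2 fold change of the 12 was 0.10. Under the same total as under RPL34 scaling, 1 of them increased, IER5L, and 4 decreased. Of all 17568 tested loci, 1647 increased and 5615 decreased under the same total, and 1078 and 7524 under RPL34 scaling. IER5L, the paralog of IER5, increased most, from 3393 ± 178 to 10755 ± 454 (log2 1.66, limma adjusted p = 1.4e-13). ZFP36L2, a relative of ZFP36 with the same RNA-binding zinc fingers, increased from 12787 ± 862 to 20807 ± 584 (log2 0.70), a call lost under the same total (0.46) and RPL34 (0.21), and ZFP36L1 had a log2 fold change of 0.49. IER3IP1, which encodes a protein that interacts with IER3, stood at 0.44. EGR4 averaged 0 in DMSO and 1.60 in THZ531 and was not tested. The decreased partners were cofactors of SRF, namely MRTFB (2005 ± 17.2 to 831 ± 19.3, log2 -1.27) and ELK3 (3474 ± 284 to 1606 ± 134, log2 -1.11). MRTFA and ELK4 stood at -0.04 and 0.03, and ELK1 at -0.52. The EGR corepressors NAB2 and NAB1 stood at -0.51 and 0.17.

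Among 43 other immediate-early genes, 22 increased (51.2%) and 2 decreased (4.65%), against 15.7% and 23.9% of all tested loci. The median log2 fold change of the 43 was 0.61. ARC rose from 23.4 ± 5.66 to 202 ± 62.5 (log2 3.04), the kinase gene SGK1 from 312 ± 15.9 to 1336 ± 81.9 (log2 2.09) and CCN2 from 2226 ± 100.1 to 6618 ± 154 (log2 1.57). ARC held only 22 to 36 reads per DMSO library and reached the mean of 100 required for naming through its THZ531 libraries. With a pseudocount of 10 its log2 value was 2.64. PLK3 (log2 -1.34) and FOSL1 (log2 -1.02) fell. Under the same total, 14 of them increased against 4 that decreased, and under RPL34 scaling 8 against 5. Of all 17568 tested loci, 1647 increased against 5615 that decreased under the same total, and 1078 against 7524 under RPL34 scaling.

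Of 23 cytoskeletal genes known as targets of SRF and MRTF, all tested, 1 increased, the actin-binding TAGLN2 (log2 0.64), and 5 decreased, with TGFB1I1 (log2 -1.19), VCL (log2 -0.82) and FHL2 (log2 -0.74) as the most changed, and the median was 0.10. The share that decreased (21.7%) was near that of all tested loci (23.9%). TAGLN2 was not called under the same total (0.40) or RPL34 (0.15), where 0 genes of the list increased and 7 and 8 decreased. Of all 17568 tested loci, 5615 and 7524 decreased under these scalings. Of 24 genes of the ERK and p38 pathways upstream, 3 increased and 3 decreased (12.5% each), with a median of 0.05. Over all tested loci 15.7% increased and 23.9% decreased. Under the same total and RPL34 scaling 0 of the 24 increased, and 7 and 9 decreased, beside the 5615 and 7524 of all loci. The receptor EGFR fell from 4578 ± 229 to 884 ± 39.6 (log2 -2.37) and CREB1, the factor that binds the cAMP response element, from 800.3 ± 46.2 to 165 ± 41.1 (log2 -2.30), followed by RPS6KA2 (log2 -0.87). The kinase gene MAPKAPK2 (log2 0.65) increased, but was not called under the same total or RPL34 scaling.

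Of 13 mRNAs known as ZFP36 targets, 12 were tested. Of these, 6 increased (50%) and 1 decreased (8.33%), against 15.7% and 23.9% of all tested loci. The median log2 fold change of the 12 was 0.57. The cytokine IL6 rose from 473 ± 39.2 to 1165 ± 184 (log2 1.29), the chemokine CXCL2 from 228 ± 28.5 to 475 ± 150 (log2 1.02) and the kinase gene PIM1 from 339 ± 43.8 to 615 ± 60.8 (log2 0.86). The decreased mRNA, named after its value was seen, was CSF2 (81.4 ± 17.5 to 29.9 ± 2.73). Under the same total, 3 were called in each direction, and under RPL34 scaling 1 increased and 3 decreased. Of all 17568 tested loci, 1647 increased and 5615 decreased under the same total, and 1078 and 7524 under RPL34 scaling. The ZFP36 transcript itself was not called under any of these scalings.

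**Figure D5:**
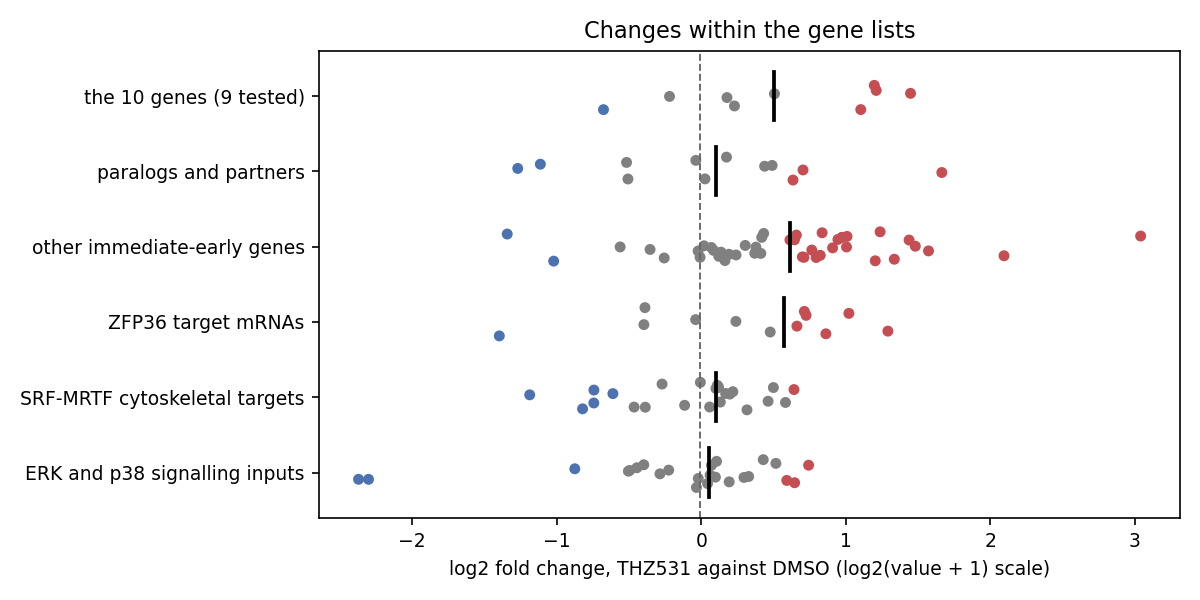
Log2 fold change, THZ531 against DMSO, of the tested genes (points) of each list (rows); red, increased; blue, decreased; grey, not called; the bar is the median of the list and the dashed line that of all tested loci. The members, the other immediate-early genes and the ZFP36 targets have medians of 0.51, 0.61 and 0.57, whereas the other 3 lists lie at 0.05 to 0.10.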

How the data were processed

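PolyA plus RNA of OVCAR3 cells was sequenced by the authors as paired-end reads of 150 bp, mapped to hg38 with STAR (2.7.5a in the submitters' processing notes) and counted on FAST DB genes with featureCounts. The strand setting of the counting is not given in the sources used here. The deposited table holds a signal per locus, the authors' read count divided by a DESeq2 size factor, with no correction for gene length. In each library 100% of values were whole multiples of 1 step (tolerance 0.1 reads), so the reads were recovered. Columns were assigned to libraries by name, and all were used.

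Values were tested as log2(value + 1) with limma 3.58.1 (trended variance, R 4.3.3) over the 17568 loci reaching 10 in 3 libraries or more, without covariates. Fold changes on this scale can understate those of low genes, whereas a library at 0 can enlarge them. For EGR2, at 0 in DMSO replicate 3, the log2 fold change was 1.04 while the means differed 1.45-fold. Adjusted p-values are Benjamini-Hochberg over all loci. Alternatives were edgeR 4.0.16, which called 6863 loci, and DESeq2 1.42.0, which called 6788, both on recovered reads, and other pseudocounts, minimums, scalings and left-out libraries. The labels do not say whether libraries come from separate cultures, so p-values measure the spread between these libraries, which may be technical.

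The members and the lists were chosen with earlier results of these data known, and no p was adjusted over a list. Named genes are all members, their paralogs, and up to 3 called genes in each direction per list, those with the largest change at a mean of at least 100, except that some genes of the ERK and p38 list are not reported here. The uncalled partners of the members, CSF2, and the cell type markers that were not called or not tested are named outside this rule. So are neighboring loci, the genes most like EGR1, and RPL34. Gene structures are MANE transcripts of GENCODE and promoters are of RefSeq. Of the 15278 tested loci with a symbol, 13246 (86.7%) matched a MANE transcript, and 7 of 10 members matched a promoter.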

Additional observations from a re-analysis of the deposited data

How the results depend on the processing

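The 4 increased members remained called under every alternative run, whereas the count of decreased members, 1 in the reported fit, was 0 at a fold change of 2 and 2 with libraries scaled to RPL34, where EGR1 (-0.71) joined EGR3, and ranged from 0 to 1 when single libraries were left out. The 0 came from leaving out DMSO replicate 3 or THZ531 replicate 2. NR4A1 turned to -0.012 when scaled to the same total and -0.26 when scaled to RPL34, and ZFP36 to -0.065 and -0.32. Of all loci, 6948 were called (2751 increased, 4197 decreased), 4042 at a fold change of 2, and 6714 to 6910 with single libraries left out. The same total gave 1647 increased and 5615 decreased, and RPL34 1078 and 7524. EGR2 was tested only without a minimum (log2 1.04, not called).

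Replicate numbers did not pair the libraries: deviations of same-numbered libraries correlated at 0.00, 0.02 and -0.04 across loci, and not every library correlated best with its own number. With the replicate block 6918 loci were called, and 4 members increased and 1 decreased. Depth limits EGR2, at 0 to 16 reads per library.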
